A study of Schmidtea mediterranea with 48 samples.

Results

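Worms after RNA interference (RNAi) against zfp1 were compared directly with worms after RNAi against pax5, both sampled on day 12. The comparison rests on 8 of the study's 48 libraries, 4 for each knockdown. It covers 22667 of the table's 28413 features, namely those whose RPKM (read count divided by feature length in kilobases and by library size) averaged at least 0.5 over all 48 libraries. The question it addresses is where the transcript levels of both knockdowns part from each other, which a comparison of each with the control alone does not test. The study itself sampled adult planarians of the species Schmidtea mediterranea on days 6, 12 and 18 of RNAi against zfp1, pax5, sox8 or unc22, with 4 libraries for each of its 12 groups. Its stated aim was to find transcriptional targets of the genes knocked down.

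All groups were worms of the clonal line CIW4, a lineage descended from a single animal, so they share a genetic background and the results describe that line alone. The zfp1 group was fed double-stranded RNA against zfp1, and the pax5 group double-stranded RNA against pax5. The unc22 group, which is used here only to show a level, was fed double-stranded RNA against a nematode gene and served as the non-targeting control. In every group the double-stranded RNA was made by bacteria and mixed into liver paste, in 3 feedings spaced 3 days apart. RNA came from whole worms, so each value sums over all cell types, and polyA libraries were made with the TruSeq kit. What a replicate was (separate worms, pools of worms or repeated libraries) is not given in the sources used here, so a p-value here reflects no more than the scatter among these libraries, part of which may be technical.

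Planarians renew every tissue from dividing stem cells called neoblasts. The ciliated and secretory epidermis that covers the worm is replaced without pause: neoblasts give rise to post-mitotic progenitors, which pass through successive stages of gene expression while they move outward to the surface. The zinc finger gene zfp1 is expressed in a class of neoblasts and is known to be needed for this epidermal lineage, whose progenitors are lost after its knockdown. Pax5 belongs to the paired-box family of transcription factor genes, whose members in other animals direct the development of particular cell types. Features are named by the table's SMED30 identifiers, which were not matched to gene names here. The levels of zfp1 and pax5 themselves and of marker genes of any cell type are therefore not reported, and the labels were not checked against the targeted genes.

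Recovered depth was 8335911 to 24166134 reads in the 4 zfp1 libraries, 14487805 to 28222629 in the 4 pax5 libraries and 19136883 to 22122920 in the 4 unc22 libraries. Replicates 1 and 3 of the zfp1 group were the shallow ones, at 8872596 and 8335911 reads. Over the 22667 features, each of the 8 libraries correlated more closely with the mean of the other libraries of its own group than with the mean of any other day 12 group. Within the zfp1 group, read counts of replicate pairs differed by 1.77 to 4.27 times the variance that sampling alone gives, and by 2.24 to 2.98 times within the pax5 group, so no library was a copy of another.

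On day 12, zfp1 and pax5 worms differed in many features, mostly by little, and in a smaller number by a lot. Of 22667 features, 4196 (18.5%) were called, that is, had a Benjamini-Hochberg-adjusted p under 0.05 in limma's moderated test on log2(RPKM + 0.5). Of these, 1811 (7.99% of all tested) were higher in zfp1 worms and 2385 (10.5%) were lower in zfp1 worms than in pax5 worms. The median size of a called difference was 0.31 on the log2 scale, and 3239 of the called features differed by less than 1.5-fold. A difference of at least 2-fold was found for 369 features (1.63%), of which 173 (0.763%) were higher and 196 (0.865%) lower in zfp1 worms. RNA of whole worms cannot tell fewer cells of a type from less RNA per cell, for these and all later results.

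The large differences were not evenly spread between the directions. At least 4-fold, 63 features were higher and 32 lower in zfp1 worms, and at least 8-fold, 18 were higher and 10 lower. In 367 of the 369 features the 4 zfp1 libraries did not overlap with the 4 pax5 libraries. The same held for 5033 (22.2%) of all features tested, of which 2146 (9.47%) had every zfp1 library above every pax5 library and 2887 (12.7%) had every zfp1 library below. SMED30020396 and SMED30015936 are the 2 features at least 2-fold apart whose libraries did overlap, which is why they are named.

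**Figure D1:**
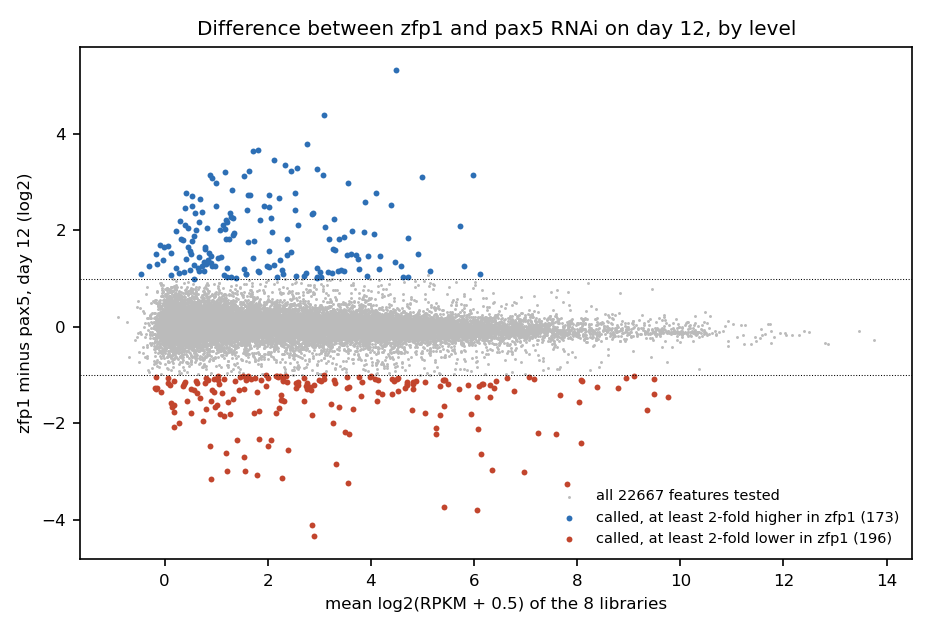
Each point is a feature, placed by its mean log2(RPKM + 0.5) over the 8 day 12 libraries and by the log2 difference, zfp1 minus pax5. The 173 blue points lie above and the 196 red points below the dotted lines at 2-fold, and the grey points are the other features among the 22667 tested.

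The features lower in zfp1 worms were led by SMED30002242. It had 0.876, 0.959, 0.932 and 2.14 RPKM in the 4 zfp1 libraries, against 35.4, 32.8, 32.8 and 30.7 RPKM in the 4 pax5 libraries. The groups lay far apart, with the highest zfp1 value in replicate 4, and the difference was -4.33 on the log2 scale (SE 0.140, adjusted p = 5.41e-27). The unc22 libraries averaged 20.1 ± 1.02 RPKM (SD, n = 4), so SMED30002242 was below the control level in zfp1 worms and above it in pax5 worms.

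SMED30008505 had 0.827, 1.21, 1.21 and 1.92 RPKM in zfp1 worms, against 30.5, 29.7, 28.9 and 29.0 RPKM in pax5 worms. All 4 zfp1 libraries were more than 8-fold below all pax5 libraries, and the difference was -4.10 (SE 0.175, adjusted p = 1.15e-22). SMED30009302 had 15.6, 11.3, 19.6 and 26.2 RPKM in zfp1 worms, against 278, 249, 225 and 244 RPKM in pax5 worms (difference -3.80, SE 0.171, adjusted p = 7.44e-22). Here too the highest zfp1 value was in replicate 4.

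SMED30032293 had 8.37, 8.59, 12.8 and 17.0 RPKM in zfp1 worms, against 160, 155, 157 and 147 RPKM in pax5 worms (difference -3.73, SE 0.148, adjusted p = 7.83e-24). The pax5 libraries stood at the control level, since unc22 averaged 165 ± 8.88 RPKM (SD, n = 4). SMED30014876 had the highest pax5 mean of the named features lower in zfp1 worms, at 57.0, 46.4, 69.6 and 139 RPKM in zfp1 worms, against 764, 702, 657 and 632 RPKM in pax5 worms (difference -3.26, SE 0.233, adjusted p = 1.51e-14). Its unc22 mean was 1073 ± 56.0 RPKM (SD, n = 4), above both knockdowns. SMED30011419 had the same order of groups, with means of 46.7 ± 21.8 RPKM in zfp1, 356 ± 41.7 RPKM in pax5 and 543 ± 29.4 RPKM in unc22 worms (SD, n = 4 each).

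Other low values were close to the reach of the sequencing. SMED30026763 had 0, 0.0681, 0.192 and 0.268 RPKM in zfp1 worms, which is 0 to 4 reads a library, against 5.06, 6.14, 5.08 and 4.13 RPKM in pax5 worms. The fitted difference of -3.16 (SE 0.189, adjusted p = 1.39e-17) depends on the pseudocount at so few reads. SMED30028674 had 0 to 5 reads in zfp1 libraries, against 22 to 46 reads in pax5 libraries.

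Features of both directions were named by size where the higher group averaged at least 1 RPKM and zfp1 and pax5 libraries did not overlap. That lack of overlap was a condition and so is no result for them. The 15 features with the largest differences of this direction ran from -4.33 to -2.70, with a median of -3.13. Their means were 0.132 to 78.1 RPKM in zfp1 worms, 5.10 to 689 RPKM in pax5 worms and 1.56 to 1073 RPKM in unc22 worms. They had a median length of 603 bases, and all 196 features lower in zfp1 worms a median length of 733 bases, against 1098 bases over all features tested (lengths inferred from the RPKM steps).

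Together the 196 features held 0.779 ± 0.111% of the summed RPKM in zfp1 libraries, against 2.07 ± 0.0814% in pax5 libraries (SD, n = 4 each) and 2.51 ± 0.0397% in unc22 libraries. These features were selected for this difference, so the shares describe their weight in the library and test nothing. Of the 4 zfp1 libraries, replicate 4 held the largest share (0.942%, against 0.702% to 0.758% in the other libraries) and had the highest value of the group in 125 of the 196 features. It was also the deepest of the group, at 24166134 reads, with replicate 2 at 23429724. Without it, 403 features were called at least 2-fold apart, 179 higher and 224 lower in zfp1 worms.

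The features higher in zfp1 worms were led by SMED30003024, which showed the largest difference of all. It had 120, 140, 147 and 158 RPKM in the 4 zfp1 libraries, against 2.58, 2.42, 2.86 and 4.65 RPKM in the 4 pax5 libraries. Every zfp1 library was more than 8-fold above every pax5 library, and the difference was 5.32 (SE 0.150, adjusted p = 6.43e-29). The zfp1 mean of 141 ± 16.1 RPKM was near the unc22 mean of 164 ± 10.7 RPKM (SD, n = 4 each).

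SMED30023073 had 37.4, 37.4, 36.8 and 42.2 RPKM in zfp1 worms, against 1.09, 0.994, 1.24 and 2.32 RPKM in pax5 worms (difference 4.40, SE 0.142, adjusted p = 5.41e-27). SMED30021695 had 11.7, 12.1, 11.3 and 13.2 RPKM in zfp1 worms, against 0.387, 0.515, 0.580 and 0.492 RPKM in pax5 worms (difference 3.66, SE 0.0988, adjusted p = 1.28e-29). In both, the zfp1 libraries stood together near the unc22 means of 44.1 and 13.2 RPKM, and the pax5 libraries stood together far below. SMED30030464 had 28.0, 27.6, 19.9 and 24.3 RPKM in zfp1 worms, against 1.96, 0.784, 0.865 and 2.00 RPKM in pax5 worms (difference 3.80, SE 0.329, adjusted p = 5.07e-12). Its unc22 libraries were spread from 30.5 to 85.1 RPKM, all above the zfp1 libraries.

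The longest of the named features was SMED30020726, with an inferred length of 11239 bases. It had 200, 144, 198 and 214 RPKM in zfp1 worms, against 21.7, 21.1, 17.8 and 22.5 RPKM in pax5 worms (difference 3.14, SE 0.114, adjusted p = 2.56e-25). This difference rests on 19196 to 59478 reads in the zfp1 libraries and 3437 to 6594 reads in the pax5 libraries, the largest counts behind any of the named features of this direction. SMED30035131 had 13.6, 13.2, 13.6 and 15.4 RPKM in zfp1 worms, against 0.809, 0.805, 0.565 and 1.10 RPKM in pax5 worms, and its difference of 3.47 had the smallest adjusted p of the named features (SE 0.0828, adjusted p = 3.64e-31).

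The 15 largest differences of this direction ran from 3.14 to 5.32, with a median of 3.30. Their means were 5.03 to 189 RPKM in zfp1 worms, 0.124 to 20.8 RPKM in pax5 worms and 4.97 to 164 RPKM in unc22 worms. All 173 features had a median difference of 1.66 and a median length of 869 bases. Of the 173, 2 had a mean under 1 RPKM in zfp1 worms, against 81 in pax5 worms, and 4 averaged at least 100 RPKM in zfp1 worms, against 0 in pax5 worms. SMED30019987 had no read in any pax5 library. At a floor of 3 reads over the 4 pax5 libraries, which is 0.0865 RPKM, its zfp1 mean of 0.641 RPKM was at least 7.40-fold higher.

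The 173 features held 0.322 ± 0.0183% of the summed RPKM in zfp1 libraries, against 0.0729 ± 0.00262% in pax5 libraries (SD, n = 4 each) and 0.380 ± 0.0139% in unc22 libraries. The zfp1 libraries ran from 0.298% to 0.342% and the pax5 libraries from 0.0699% to 0.0763%, so no library of either group stood apart.

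**Figure D2:**
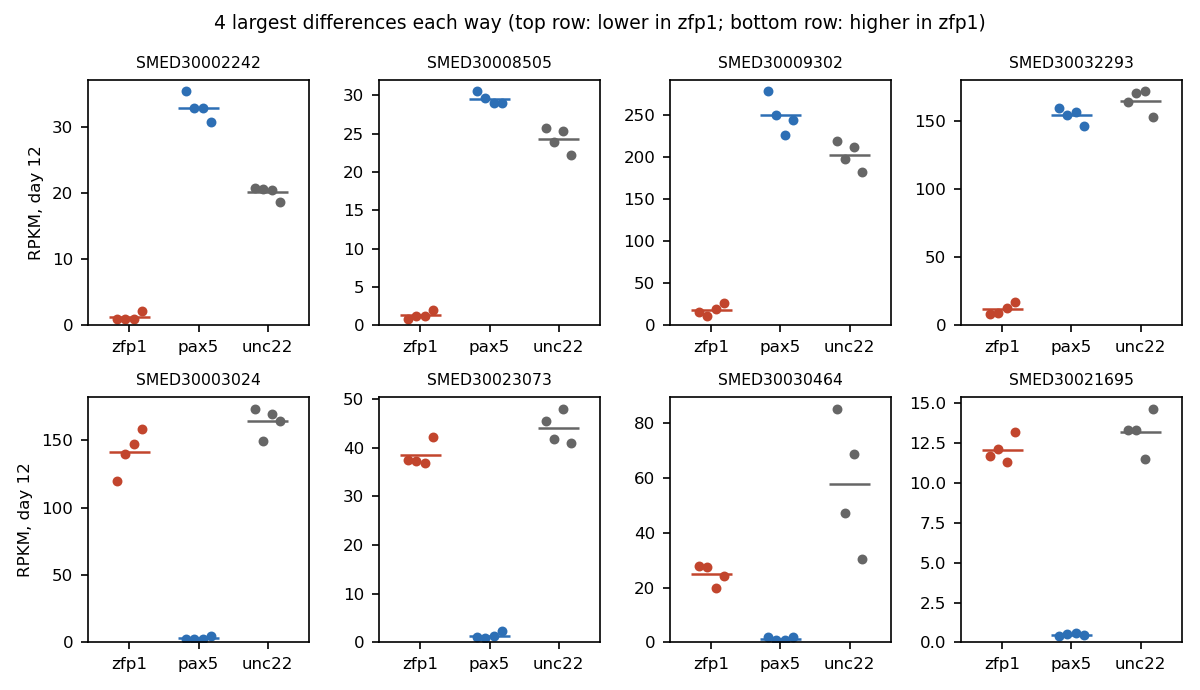
RPKM on day 12 in each library (points) with the group mean (line) for the 4 features lower in zfp1 worms (top row) and the 4 higher in zfp1 worms (bottom row) with the largest differences, in zfp1, pax5 and unc22 worms from left to right. In the top row the zfp1 points lie near 0 and in the bottom row the pax5 points do, with the zfp1 points of the bottom row near the unc22 points except in SMED30030464, where they (19.9 to 28.0 RPKM) lie below every unc22 point (30.5 to 85.1 RPKM).

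The unc22 level shows how far each knockdown stood from the control in each feature. Both knockdowns are compared with the same 4 unc22 libraries here, and the positions are descriptions with no test. The shares over all features tested were not counted, so whether any count by unc22 position is high or low is not known. Among the 196 features lower in zfp1 worms, zfp1 was at least 2-fold below unc22 in 132, and pax5 was within 2-fold of unc22 in 177. In 128 features both held. Pax5 was at least 2-fold above unc22 in 16 features and at least 2-fold below it in 3, and in 49 features neither knockdown was 2-fold from unc22 although they were 2-fold from each other.

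Among the 173 features higher in zfp1 worms, zfp1 was within 2-fold of unc22 in 156, and pax5 was at least 2-fold below unc22 in 147. In 136 features both held. Zfp1 was at least 2-fold above unc22 in 6 features. Both knockdowns were at least 2-fold below unc22 in 11, with zfp1 the less far below. In 20 features neither knockdown was 2-fold from unc22.

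**Figure D3:**
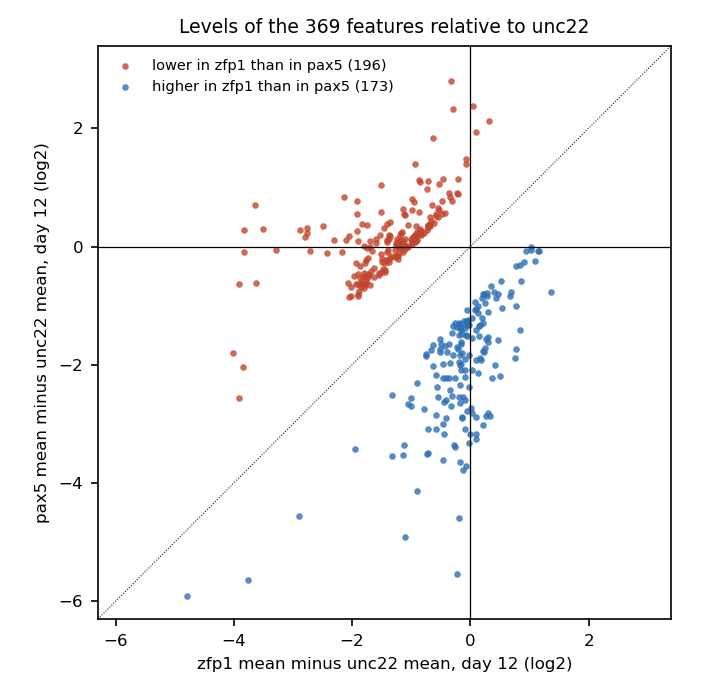
The 369 features placed by their zfp1 level (horizontal axis) and pax5 level (vertical axis) on day 12, each as the log2 difference of group means from unc22, with the dotted line where both are equal. The 196 red features lie above that line and mostly left of 0 on the zfp1 axis, and the 173 blue features lie below it and mostly under 0 on the pax5 axis.

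Placed by the order of the 3 group means on the log2 scale, the 196 features lower in zfp1 worms fell into 4 classes. In 79 features unc22 was above both knockdowns, in 90 it lay between them and nearer to pax5, in 24 it lay between them and nearer to zfp1, and in 3 it was below both. In the class of 79 the median log2 difference from unc22 was -1.73 for zfp1 and -0.38 for pax5. SMED30012332, one of them, had 3.41 ± 0.773 RPKM in zfp1 worms, against 35.7 ± 3.03 RPKM in pax5 worms and 37.1 ± 1.88 RPKM in unc22 worms (SD, n = 4 each), so that only zfp1 stood clear of the control.

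In the class of 24 the order was turned: the median log2 difference from unc22 was -0.47 for zfp1 and 1.01 for pax5. SMED30033800, which had the largest difference of that class, had 1.66, 0.942, 1.11 and 0.926 RPKM in zfp1 worms, against 14.3, 12.7, 15.3 and 13.2 RPKM in pax5 worms (difference -3.13, SE 0.275, adjusted p = 2.26e-12). The zfp1 libraries lay near the control level, since unc22 averaged 1.56 ± 0.159 RPKM (SD, n = 4), and the pax5 libraries far above it. SMED30034302 had means of 0.481 ± 0.327 RPKM in zfp1, 5.19 ± 0.300 RPKM in pax5 and 0.643 ± 0.109 RPKM in unc22 worms (SD, n = 4 each). The 3 features with unc22 below both were SMED30022734, SMED30031202 and SMED30003653, with zfp1 means of 0.750 to 1.44 RPKM and pax5 means of 3.73 to 9.22 RPKM. For SMED30031202 this order holds on the log2 scale only: in RPKM its zfp1 mean of 0.750 was below its unc22 mean of 0.779.

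The 173 features higher in zfp1 worms fell into 3 classes: unc22 was above both knockdowns in 106 features, between them and nearer to zfp1 in 56, and between them and nearer to pax5 in 11. In the class of 106 the median log2 difference from unc22 was -0.26 for zfp1 and -2.22 for pax5. SMED30020396 was an extreme case, with 10.7, 7.63, 13.2 and 29.4 RPKM in zfp1 worms, against 5.10, 5.73, 4.69 and 8.85 RPKM in pax5 worms, and an unc22 mean of 384 ± 17.5 RPKM (SD, n = 4). Both knockdowns were far below the control, zfp1 replicate 2 lay within the pax5 range, and the difference of 1.11 (SE 0.299, adjusted p = 0.00619) was not called without zfp1 replicate 4 (0.74, adjusted p = 0.0640). In the class of 11, SMED30003487 had 4.12 ± 0.575 RPKM in zfp1, 0.561 ± 0.0875 RPKM in pax5 and 1.44 ± 0.882 RPKM in unc22 worms (SD, n = 4 each), with a difference of 2.12 (SE 0.256, adjusted p = 1.16e-08).

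Worms after RNAi against sox8 gave a further level on day 12, without a test. Of the 196 features lower in zfp1 worms, 12 were at least 2-fold below unc22 in sox8 worms. They included SMED30008505, SMED30009302 and SMED30014876, at sox8 means of 2.42, 22.4 and 81.2 RPKM, while SMED30032293, SMED30012332 and SMED30023017 had sox8 means of 162, 32.5 and 215 RPKM, near their unc22 means of 165, 37.1 and 202 RPKM. Of the 173 features higher in zfp1 worms, 3 were at least 2-fold below unc22 in sox8 worms. The share over all features tested was not counted, so whether 12 and 3 are many or few is not known.

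The same pair of knockdowns was compared in the libraries of days 6 and 18. These did not enter the differences that chose the 369 features, though they shared the filter and the estimate of spread. Fewer features separated zfp1 from pax5 worms on day 6 and more on day 18. Over all features tested, 1751 (7.72%) were called on day 6, 804 (3.55%) higher and 947 (4.18%) lower in zfp1 worms. On day 18, 5414 (23.9%) were called, 2175 (9.6%) higher and 3239 (14.3%) lower. Differences of at least 2-fold were called for 172 features (0.759%) on day 6, 143 (0.631%) higher and 29 (0.128%) lower, and for 628 (2.77%) on day 18, 235 (1.04%) higher and 393 (1.73%) lower.

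The 2 directions differed in when they appeared. Of the 173 features higher in zfp1 worms on day 12, 154 were called higher on day 6 already, with a median difference of 1.25 over the 173 (quartiles 0.78 and 1.94), and 112 of them by at least 2-fold. On day 18, 155 were called higher, with a median of 1.46. Of the 196 features lower in zfp1 worms on day 12, 101 were called lower on day 6, with a median of -0.42 (quartiles -0.68 and -0.10), and 25 of them by at least 2-fold. On day 18, 181 were called lower, with a median of -1.60, and 156 of them by at least 2-fold. The median over all features tested was within 0.00434 of 0 on each of these days.

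Whether the difference itself changed between day 6 and day 18 was tested in the same model, with no day 12 library. Over all features, 3387 (14.9%) were called, of which 1264 (5.58%) had a more positive and 2123 (9.37%) a more negative difference, zfp1 minus pax5, on day 18. By at least 2-fold, 572 (2.52%) changed, 142 (0.626%) toward the positive and 430 (1.9%) toward the negative. Of the 196 features lower in zfp1 worms on day 12, 144 were called more negative on day 18 (121 of them by at least 2-fold) and 10 more positive, with a median change of -1.31. Of the 173 features higher in zfp1 worms, 64 were called more positive (38 of them by at least 2-fold) and 33 more negative, with a median change of 0.26, and 76 were not called.

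**Figure D4:**
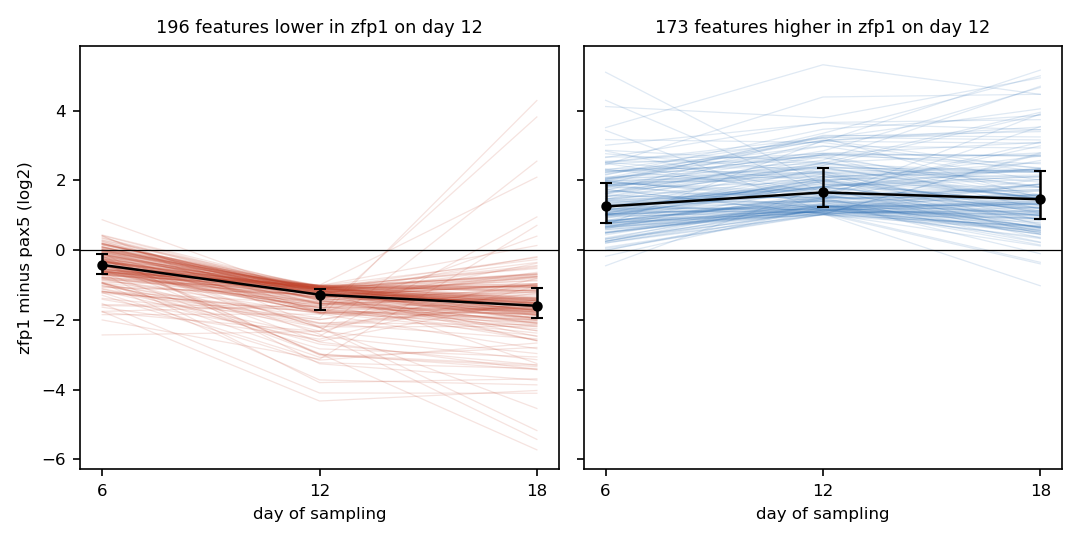
Log2 difference, zfp1 minus pax5, on days 6, 12 and 18 for the 196 features lower (left) and the 173 higher (right) in zfp1 worms on day 12, with 1 thin line a feature and the median with quartiles in black. The left medians were -0.42, -1.28 and -1.60 and the right medians 1.25, 1.66 and 1.46, and the day 12 points were chosen by their size.

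The difference between the knockdowns came latest in the class of 79 features with unc22 above both. Its median difference was -0.02 on day 6, where 18 were called lower and 4 higher in zfp1 worms, and -1.62 on day 18, where 78 were called lower. SMED30014876 had means of 1063 RPKM in zfp1 and 1114 RPKM in pax5 worms on day 6 (difference -0.08, SE 0.233, adjusted p = 0.925), and 56.8 RPKM in zfp1, against 680 RPKM in pax5 worms on day 18 (difference -3.73, SE 0.233, adjusted p = 1.06e-16). Its unc22 means were 1872 RPKM on day 6 and 988 RPKM on day 18, so both knockdowns were below the control level on day 6 already. In the class of 90 with unc22 nearer to pax5, 59 features were called lower on day 6, with a median of -0.55. In the class of 24 with unc22 nearer to zfp1, 21 were called lower on day 6, with a median of -0.86.

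The largest change with time among the named features was that of SMED30023017. It had means of 141 RPKM in zfp1 worms and 183 RPKM in pax5 worms on day 6 (difference -0.38, SE 0.251, adjusted p = 0.462), 29.6 RPKM in zfp1, against 226 RPKM in pax5 worms on day 12 (difference -2.97), and 4.51 RPKM in zfp1, against 214 RPKM in pax5 worms on day 18 (difference -5.73, SE 0.251, adjusted p = 1.82e-21). The zfp1 mean was lower on each later day, while the pax5 mean stayed near the unc22 means of 179, 202 and 196 RPKM. SMED30032042 ran alongside it (difference -5.43 on day 18), and their log2 levels correlated at 0.996 over the 48 libraries. Whether both share reads was not tested, so they are uncertain as separate features.

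Among the features higher in zfp1 worms, SMED30003024 was 3.52 higher on day 6, 5.32 on day 12 and 4.47 on day 18. Its zfp1 means were 177, 141 and 33.9 RPKM on these days, and its pax5 means 15.4, 3.13 and 1.06 RPKM, against unc22 means of 166, 164 and 165 RPKM. SMED30006763 had a difference of 1.62 on day 6, 3.12 on day 12 and 5.17 on day 18, with zfp1 means of 138, 94.6 and 204 RPKM and pax5 means of 44.8, 10.6 and 5.17 RPKM. SMED30008921 went the other way, with a difference of 5.11 on day 6 and 1.89 on day 12: its zfp1 mean was 41.1 RPKM on day 6 and 2.73 RPKM on day 12, and its pax5 means were 0.815 and 0.303 RPKM. The change between day 6 and day 18 was called for both, at 3.55 (SE 0.226, adjusted p = 5.40e-16) for SMED30006763 and -3.29 (SE 0.422, adjusted p = 5.16e-08) for SMED30008921.

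As shares of the summed RPKM, the 196 features lower in zfp1 worms on day 12 held 2.43 ± 0.0785% in zfp1 and 2.61 ± 0.0493% in pax5 libraries on day 6, and 0.561 ± 0.0802% in zfp1 and 1.71 ± 0.00923% in pax5 libraries on day 18 (SD, n = 4 each). In unc22 libraries they held 3.08 ± 0.107% on day 6 and 2.26 ± 0.0393% on day 18. The 173 features higher in zfp1 worms held 0.435 ± 0.0179% in zfp1 and 0.159 ± 0.00786% in pax5 libraries on day 6, and 0.260 ± 0.00925% in zfp1 and 0.0512 ± 0.00151% in pax5 libraries on day 18, against 0.470 ± 0.00828% and 0.385 ± 0.0226% in unc22 libraries on these days. In both sets the zfp1 and pax5 libraries did not overlap on day 6 or day 18. The day 6 ranges of the 196 features were close, at 2.34% to 2.53% in zfp1 and 2.56% to 2.66% in pax5 libraries.

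Some features were called in opposite directions on different days, and they are described because of that, after their values were seen. On day 18, 5 of the 196 features lower in zfp1 worms on day 12 were called higher, and 2 of the 173 features higher on day 12 were called lower. SMED30022734 had 2.41, 1.31, 1.14 and 0.892 RPKM in zfp1 worms, against 12.6, 10.1, 5.85 and 8.38 RPKM in pax5 worms on day 12 (difference -2.34, SE 0.360, adjusted p = 3.19e-06). On day 18 it had 188, 280, 415 and 225 RPKM in zfp1 worms, against 40.1, 25.5, 44.9 and 85.8 RPKM in pax5 worms (difference 2.55, SE 0.360, adjusted p = 2.81e-07). The groups did not overlap on either day, and the order of the knockdowns was the opposite. Control and sox8 worms also had more of it on day 18. Its unc22 mean was 1.32 RPKM on day 12 and 27.4 RPKM on day 18, and its sox8 mean 2.82 and 29.5 RPKM.

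SMED30029247, SMED30004187, SMED30035001 and SMED30018133 had the same pattern. Their day 12 means were 1.35, 0.358, 5.55 and 0.316 RPKM in zfp1 worms, against 7.42, 3.70, 11.6 and 3.86 RPKM in pax5 worms. Their day 18 means were 236, 131, 66.03 and 11.7 RPKM in zfp1 worms, against 17.9, 6.46, 12.2 and 5.75 RPKM in pax5 worms. Their unc22 means were higher on day 18 too, at 17.9, 5.22, 11.5 and 1.53 RPKM. On day 12 these were 4.22, 1.36, 7.63 and 0.771 RPKM. The change between day 6 and day 18 was 2.37 to 5.27 on the log2 scale over the 5, which is a description, since they were chosen for being called higher on day 18.

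Several of these calls were lost under an alternative. SMED30004187 had 9.15 RPKM in pax5 replicate 1 and 1.31 to 2.94 RPKM in the other pax5 libraries, and was not called without that replicate (-1.43, adjusted p = 0.0865), without zfp1 replicates 1 and 3 together (adjusted p = 0.0771) or with voom on recovered reads (adjusted p = 0.503). SMED30029247 had 17.5 RPKM in pax5 replicate 1 and 2.58 to 6.34 RPKM in the other pax5 libraries, and was not called without it (-1.27, adjusted p = 0.108), without zfp1 replicates 1 and 3 together (adjusted p = 0.0507), with voom (adjusted p = 0.407) or at equal depth (adjusted p = 0.172). In both features every other pax5 library still lay above every zfp1 library. On day 12, SMED30029247 was highest in replicate 1 also in unc22 worms (9.04 RPKM, against 1.67 to 4.22 RPKM). In sox8 worms its replicate 1 had 14.9 RPKM, against 4.66 to 12.6 RPKM. SMED30004187 too was highest in replicate 1 in unc22 (2.47 RPKM) and sox8 worms (4.81 RPKM). In zfp1 worms replicate 1 was not the highest for these features, and the cause was not tested. On day 18 both also had their highest zfp1 value in replicate 3 and their highest pax5 value in replicate 4. Whether SMED30004187 and SMED30029247 share reads was not tested, so they are uncertain as separate features. SMED30035001 was not called on day 12 with voom (-0.99, adjusted p = 0.255) or at equal depth (-0.67, adjusted p = 0.131). SMED30018133 was not called on day 18 without zfp1 replicate 3 (0.83, adjusted p = 0.0535), at equal depth (1.04, adjusted p = 0.107) or with a pseudocount of 0.1 (1.002, adjusted p = 0.0985). SMED30033800 had 10.3, 30.9, 68.9 and 18.0 RPKM in zfp1 worms, against 13.97, 14.6, 14.8 and 17.8 RPKM in pax5 worms on day 18, where the groups overlapped and the difference of 0.71 was not called (SE 0.275, adjusted p = 0.0547). It was called under 8 of 20 alternatives, among them without zfp1 replicate 1 (1.13, adjusted p = 0.000385), without zfp1 replicate 4 (0.87, adjusted p = 0.0271) and with voom (0.92, adjusted p = 0.0110).

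**Figure D5:**
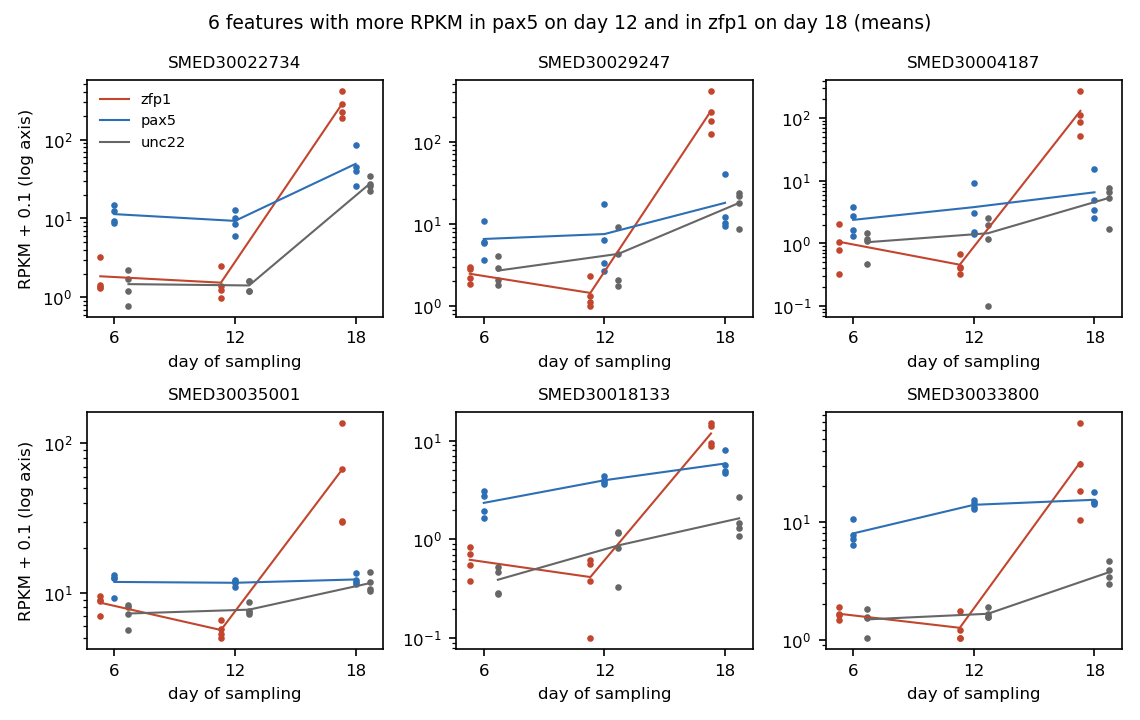
RPKM + 0.1 on a log axis in each library (points, shifted sideways by group) with the group means (lines) on days 6, 12 and 18 for 6 features, in zfp1, pax5 and unc22 worms. On day 12 the zfp1 means lie below the pax5 means, and on day 18 above them, with SMED30033800 (lower right) the feature whose groups overlap on day 18.

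The opposite change was shown by SMED30026794 and SMED30002013. SMED30026794 had means of 3.05 ± 0.756 RPKM in zfp1, against 1.21 ± 0.253 RPKM in pax5 worms on day 12 (SD, n = 4 each), and of 0.503 RPKM in zfp1, against 1.41 RPKM in pax5 worms on day 18 (difference -1.02, SE 0.189, adjusted p = 3.08e-05). Its unc22 means were 4.52 and 4.08 RPKM, above both knockdowns. SMED30002013 had 11.2 RPKM in zfp1, against 5.22 RPKM in pax5 worms on day 12, and 3.57 RPKM in zfp1, against 4.803 RPKM in pax5 worms on day 18, a difference of -0.39 (SE 0.0977, adjusted p = 0.00169) that was not called at equal depth (-0.30, adjusted p = 0.138).

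On day 6, 4 of the 196 features were called higher in zfp1 worms, namely SMED30031990, SMED30018353, SMED30009513 and SMED30020794. SMED30031990 had means of 169 RPKM in zfp1, against 91.5 RPKM in pax5 worms on day 6 (difference 0.87, SE 0.252, adjusted p = 0.0228), and of 11.8 RPKM in zfp1, against 28.0 RPKM in pax5 worms on day 12 (difference -1.36, SE 0.252, adjusted p = 7.51e-05). Its unc22 means were 286 and 166 RPKM, above both knockdowns. Its day 6 call was not reached without zfp1 replicate 1, pax5 replicate 1 or pax5 replicate 4 (adjusted p of 0.0559 to 0.0710). SMED30018353 and SMED30009513 are uncertain as separate features: their log2 levels correlated at 0.999 over the 48 libraries and never differed by more than 0.14, so they may share reads. The day 6 call of SMED30018353 (0.36, adjusted p = 0.0432) was lost when any 1 of the 8 day 6 libraries was left out, at adjusted p of 0.0509 to 0.120, and also at equal depth, without the filter and with a replicate block (adjusted p of 0.0544 to 0.0815). Of the 173 features, SMED30006900 was called lower on day 6 (-0.45, SE 0.121, adjusted p = 0.0132), a call lost without pax5 replicate 3 (adjusted p = 0.0846) and at equal depth (adjusted p = 0.0603), and was 1.83 higher on day 12.

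The thresholds divide close neighbours. Just inside 2-fold, SMED30034208 had means of 2.28 RPKM in zfp1, against 5.06 RPKM in pax5 worms (difference -1.002), and SMED30025493 had 1.64 RPKM in zfp1, against 0.556 RPKM in pax5 worms (difference 1.002). Just outside, SMED30003274 had 24.8 RPKM in zfp1, against 49.6 RPKM in pax5 worms, and SMED30002575 had 6.66 RPKM in zfp1, against 3.06 RPKM in pax5 worms. At the minimum mean of 0.5 RPKM over the 48 libraries, SMED30001803 was just inside, with day 12 means of 0.509 RPKM in zfp1 and 0.401 RPKM in pax5 worms, and SMED30027365 was just outside, with 0.404 RPKM in zfp1 and 0.546 RPKM in pax5 worms.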

How the data were processed

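PolyA RNA of whole worms was measured in 48 libraries, of which 4 zfp1 and 4 pax5 libraries of day 12 carry the comparison. The deposited values are RPKM, which the authors computed, in 1 table. The submitters' processing notes list Bowtie, edgeR and CASAVA 1.8.2, and give neither their roles nor their order. Reference transcripts, annotation, strand setting and the handling of multiply aligned reads are not given in the sources used here.

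RPKM values were put on the scale of log2(RPKM + 0.5), which understates the differences of low features. Features with a mean of at least 0.5 RPKM over the 48 libraries (22667 of 28413, 79.8%) were tested with limma 3.58.1 in R 4.3.3. A single model held 1 mean for each of the 12 groups, without covariates, with robust and trend options on. Two-sided p-values were adjusted by Benjamini and Hochberg's method over all 22667 features in each contrast. Calls are features with an adjusted p under 0.05. All differences are zfp1 minus pax5.

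Whole reads were recovered from the steps of the RPKM values for 28413 of 28413 features. They deviated from whole numbers by at most 3.96e-09 (tolerance 0.0001) and gave depths of 6894458 to 65663283 reads. The library size in the RPKM was not the recovered reads alone, but these times a relative factor of 0.929 to 1.07. On day 12 this factor was 1.025 to 1.039 in zfp1 and 0.972 to 0.998 in pax5 libraries. Its origin is not given in the sources used here. Ranges, floors and intervals from reads cover counting error only. Recovery and test were checked on simulated data. The table holds no samples other than these 48.

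Named features are the 15 largest differences each way, where the higher group averaged at least 1 RPKM and the groups did not overlap. To these come the 3 largest of each class by the unc22 level, the 3 largest each way with a mean of at least 100 RPKM, the 2 largest each way on days 6 and 18 and between these days, and the 2 nearest 2-fold on either side. Features with opposite calls on different days were added after their values were seen, which gave 57 named features. The comparison, the rules and the lists were chosen with earlier results of these data known. Marker lists of planarian cell types were not tested, because identifiers were not matched to names. Alternatives were the pseudocount, the filter, the scaling, voom on recovered reads, equal depth, library weights, a fit of only the groups compared, a replicate block and leaving out each library. Other steps used Python 3.11.15 (pandas 2.3.3, numpy 2.4.6, matplotlib 3.10.9, scipy 1.17.1).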

Additional observations from a re-analysis of the deposited data

Results flagged for a closer look

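Of 118 groups of 4 libraries on day 12, which are the zfp1 and pax5 groups of the 57 named features and of the summed shares of the features lower and higher in zfp1 worms, 10 had a library far from the other 3, and chance alone gives about 1 in 20. In zfp1 worms these were replicate 4 of SMED30002242 (2.14 RPKM, against 0.876 to 0.959 in the other libraries), of SMED30003044 (1.65 RPKM) and of SMED30023073 (42.2 RPKM), replicate 2 of SMED30026307 (0.494 RPKM) and, on the low side, replicate 2 of SMED30019979 (20.0 RPKM). In pax5 worms these were replicate 1 of SMED30003044 (11.2 RPKM), SMED30020794 (69.9 RPKM) and SMED30031844 (2.13 RPKM), replicate 3 of SMED30031202 (4.85 RPKM) and, on the low side, replicate 2 of SMED30026794 (0.826 RPKM). Replicate 4 of zfp1 was the high library in 3 of the 10 and replicate 1 of pax5 in 3.

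The difference, zfp1 minus pax5, was not the same on day 18 as on day 6 in 49 of the 57 named features by limma's test of the change itself (adjusted p under 0.05), 22 with a more positive and 27 with a more negative difference on day 18. Over all features tested 14.9% were called, 5.58% more positive and 9.37% more negative. The named features include some chosen for a large change between these days, for a large difference on 1 of them or for opposite calls, so their count is a description. Under some alternative 8 of them lost the call. Values here are that change on the log2 scale, with no day 12 library in it.

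Among the 15 features with the largest differences lower in zfp1 worms on day 12, the change was -2.27 for SMED30002242, -2.57 for SMED30008505, -3.03 for SMED30009302, -2.92 for SMED30032293, -3.65 for SMED30014876, -2.10 for SMED30012332 and -1.45 for SMED30026763. It was -1.87 for SMED30003044, -3.17 for SMED30011419, -3.06 for SMED30028674, -2.80 for SMED30026307, -5.35 for SMED30023017, -2.15 for SMED30026101 and -2.35 for SMED30028981. SMED30033800 alone of these 15 had a positive change, of 2.71.

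Among the 15 features with the largest differences higher in zfp1 worms, the change was 0.95 for SMED30003024, 2.02 for SMED30023073, 1.09 for SMED30021695, 0.45 for SMED30016988, 1.71 for SMED30035131, 3.10 for SMED30007443 and 1.54 for SMED30031844. It was 1.33 for SMED30019979, 1.18 for SMED30030761, 1.76 for SMED30024730, 1.36 for SMED30032163 and 2.73 for SMED30020726, and it was -1.03 for SMED30014356. The change was not called for SMED30024954 and SMED30030464. For SMED30016988 the call (adjusted p = 0.0431) was lost under 14 of 28 alternatives, at adjusted p up to 0.570. It was lost for SMED30014356 under 3 (up to 0.348) and for SMED30003024 with voom (0.105), and for SMED30026763 of the 15 lower features at equal depth (0.0852).

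Of the other named features, the change was positive for SMED30018133 (2.37), SMED30022734 (4.99), SMED30004187 (5.27), SMED30031202 (2.25), SMED30029247 (5.02), SMED30035001 (2.53), SMED30003318 (1.23), SMED30006900 (2.80) and SMED30006763 (3.55). It was negative for SMED30032042 (-5.16), SMED30031990 (-1.63), SMED30018353 (-1.91), SMED30009513 (-1.98), SMED30020794 (-1.96), SMED30034208 (-0.52) and SMED30003274 (-1.49), and for SMED30026794 (-2.76), SMED30002013 (-1.08), SMED30020396 (-1.55), SMED30011585 (-1.17) and SMED30008921 (-3.29). The call was lost at equal depth for SMED30034208 (adjusted p = 0.0537), SMED30003318 (0.240) and SMED30011585 (0.131), for SMED30011585 also with voom (0.0729), and for SMED30020396 with voom (0.104) and with only the groups compared (0.0915).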

How the results depend on the processing

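The 369 features at least 2-fold apart on day 12 numbered 293 to 532 under the alternatives, and with each library left out in turn 359 to 403. Taken singly, each alternative that tested all of the 369 kept a call in the same direction for at least 351, and none changed sign. How many kept it under all alternatives at once was not counted. With all libraries thinned to 6894458 reads, the features called numbered 2509 on day 12 (against 4196) and 1012 on day 6 (against 1751), and a thinned library holds fewer reads. Day 6 gave 916 calls with only the groups compared in the fit and 2632 with voom on recovered reads, and the cause was not tested. An alternative chosen after the depths were seen left out both shallow zfp1 libraries of day 12, replicates 1 and 3, which gave 2581 calls on day 12, and 361 of the 369 kept theirs. Leaving out each library in turn gave 3333 to 3900 calls on day 12, 1178 to 2047 on day 6, 4897 to 5222 on day 18 and 3035 to 3595 for the change between these days.

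The split between directions moved by over 10 percentage points under quantile normalization on day 18 (3139 higher and 2832 lower, against 2175 and 3239) and for the change between days (2014 and 2017, against 1264 and 2123), and on day 6 with only the groups compared (545 and 371, against 804 and 947), without pax5 replicate 3 (880 and 556) or without zfp1 replicate 1 (735 and 1312). Under each scaling the median of all features stayed within 0.0345 of 0. Of the 57 named features, 5 lost their day 12 call under some alternative: SMED30004187 (adjusted p up to 0.503), SMED30029247 (0.407), SMED30035001 (0.255) and SMED30024144 (0.105) with voom, and SMED30020396 (0.0755) with only the groups compared.

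Over all features, the replicate numbers showed no pairing of the zfp1 and pax5 libraries on day 12. A correlation over all features cannot exclude a replicate effect in some of them. SMED30022734 had its highest day 12 value in replicate 1 in zfp1, pax5, unc22 and sox8 worms alike, and the cause was not tested. Deviations of same-numbered zfp1 and pax5 libraries from their group means correlated at -0.0216 to -0.0136, against -0.0290 to 0.0373 for other numbers. On day 18 these ranges were -0.0271 to 0.00853 and -0.0339 to 0.0313. On day 6 they were wider, at -0.419 to 0.076 and -0.231 to 0.452. The highest value on day 6 was between zfp1 replicate 1 and pax5 replicate 3, and its cause was not tested. With a replicate block, 3985 features were called on day 12, 1594 on day 6, 5231 on day 18 and 3206 for the change between days, and 369 were at least 2-fold apart on day 12. For a feature of the median length, 3 reads correspond to 0.121 to 0.346 RPKM in a zfp1 library and 0.107 to 0.212 RPKM in a pax5 library of day 12. Lower levels of such a feature rest on fewer than 3 reads in a library.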
